A study of Rattus norvegicus with 12 samples.

Results

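RNA was sequenced from rat hippocampus, and 1891 of the 28959 rows of the deposited expression table carry a serial ID such as Novel00085 instead of an Ensembl rat gene number. The loci described here are the 1346 of those 1891 rows whose mean over the 12 libraries was at least 0.5 FPKM (reads scaled by transcript length and by the size of the library). That mean chose them, so their levels are given as a description without a test. The groups played no part in the choice. Of the other rows with serial IDs, 496 lay above 0 but under the threshold and 49 were at 0 in every library. The members nearest the threshold were Novel00015, Novel00347 and Novel01284, each at a mean of 0.501 FPKM, and the nearest rows outside it were Novel00330 and Novel01345 at 0.5 FPKM after rounding and Novel00978 at 0.499 FPKM.

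A transcriptome built from reads contains stretches of transcription that the gene annotation lacks. Such loci can be long non-coding RNAs, further exons or longer ends of a known gene, antisense transcripts, or pieces of incompletely spliced RNA, and many long non-coding RNAs are expressed at low levels and in few tissues. Brain is known for a large number of them. How these rows were built, which strand setting was used for counting and where the loci lie is not given in the sources used here. For this reason, reads from a locus and from an annotated gene that overlaps it cannot be told apart. No locus has a known role that could be named, and positions and sequences were not used here.

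The study compared 4 groups of 3 libraries from Sprague Dawley rats with a stated age of 6 to 7 weeks. Ctrl-Sal rats had no stress and received saline. CUMS-Sal rats went through 5 weeks of chronic unpredictable mild stress, a series of changing mild stressors used as a rodent model of depression, and received saline. CUMS-Flx and CUMS-Alb rats went through the same stress and received a drug for the last 7 days, in CUMS-Flx the serotonin reuptake inhibitor fluoxetine, at 10 mg/kg per day by the sample labels and 7 mg/kg per day by the text on the series, and in CUMS-Alb albiflorin, a monoterpene glycoside of peony root, at 7 mg/kg per day. Whether each library is a rat of its own is not stated, and p-values here therefore describe variation among libraries, which may be technical. Hippocampal tissue holds many cell types, and a change in the number of cells of a type cannot be told apart from a change in RNA per cell.

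The libraries held between 14735953 and 18109623 reads, recovered from the FPKM values. All rows together held 99.99% of these totals. The totals thus count reads assigned to rows and may fall short of the reads sequenced. Ctrl-Sal replicate 2 stood apart from the other 11 in part of the loci, as described below, and a named locus that loses its call without that library is marked where it is described. The tissue label could not be checked against marker genes, since 0 Ensembl IDs matched a gene symbol in the reference used.

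Most of the unannotated loci were transcribed at low levels. Their median of the mean level was 1.35 FPKM, the 10th percentile 0.597 FPKM and the 90th percentile 10 FPKM. A level under 1 FPKM was found for 498 members (37%), and 137 members (10.2%) reached at least 10 FPKM. Among all 15253 rows at or over the threshold, the share of rows without an Ensembl number fell from 30.1% between 0.5 and 1 FPKM to 9.41% between 2 and 5 FPKM and to 1.68% at 50 FPKM and over. The median over the 13907 Ensembl rows at or over the threshold was 9.36 FPKM.

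**Figure D1:**
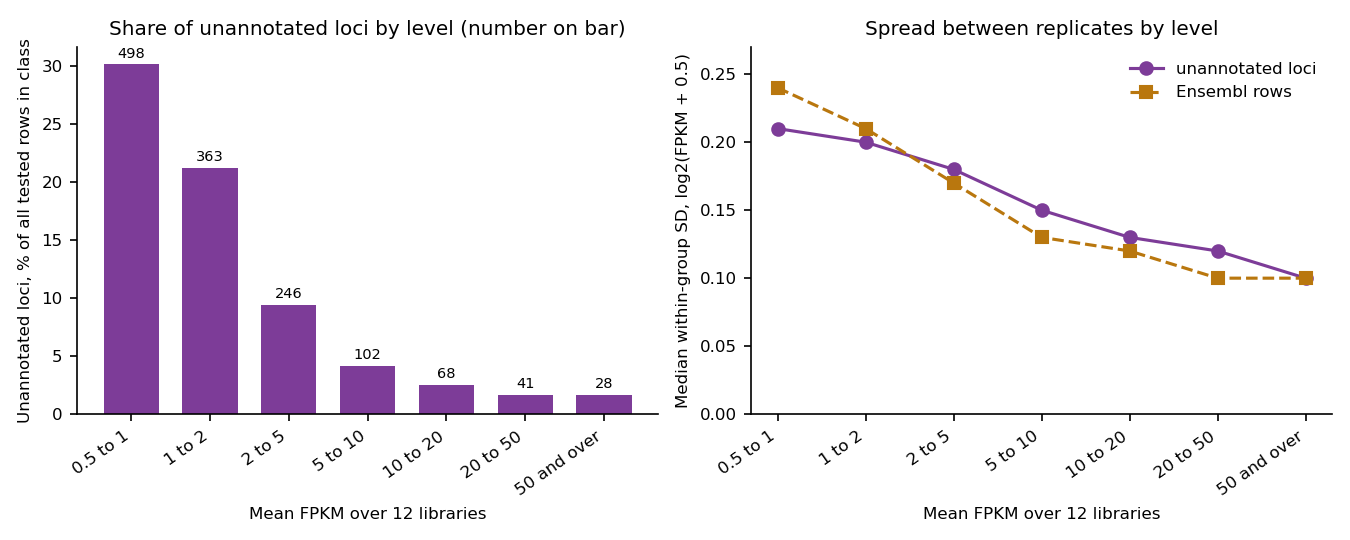
The left panel plots the unannotated loci as a percentage of all tested rows in 7 classes of mean FPKM, with their number on each bar, and the right panel plots the median within-group SD of log2(FPKM + 0.5) for the loci (circles) and for Ensembl rows (squares) in the same classes. The share falls from 30.1% to 1.68% with rising level, and both SD curves fall from over 0.20 to 0.10.

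A few loci were among the abundant transcripts of the tissue. The 10 with the highest means held 18.3% of the members' summed FPKM. Novel01707 (7915 bp) and Novel01231 (638 bp) both had a mean of 178 FPKM, followed by Novel01690 (741 bp) at 170 FPKM and Novel01204 (8517 bp) at 131 FPKM. In reads, which also reflect length, the long loci led, with a mean of 22932 reads for Novel01707 and 18095 for Novel01204 against 1846 for Novel01231.

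The levels of these 10 loci were steady in some cases and moved between libraries in others. Novel01690 gave 166, 149 and 178 FPKM in Ctrl-Sal, 177, 168 and 172 FPKM in CUMS-Sal, 178, 170 and 170 FPKM in CUMS-Flx, and 174, 172 and 170 FPKM in CUMS-Alb, and all 4 groups overlapped. Novel01204 gave 132, 153 and 116 FPKM in Ctrl-Sal and 105, 165 and 167 FPKM in CUMS-Sal, so that 1 CUMS-Sal library lay below every control. CUMS-Flx replicates 1 and 2 did so too, at 111 and 109 FPKM. Novel00208 (313 bp, mean 128 FPKM) gave 110, 63.3 and 110 FPKM in Ctrl-Sal, 129, 132 and 144 FPKM in CUMS-Sal, 106, 145 and 161 FPKM in CUMS-Flx, and 161, 137 and 137 FPKM in CUMS-Alb. The lowest value of Novel00208 was Ctrl-Sal replicate 2, and CUMS-Sal and CUMS-Alb did not overlap Ctrl-Sal. Its log2 difference between CUMS-Sal and Ctrl-Sal was 0.56, and 0.29 without that library. None of the 10 passed the test in any pairwise comparison described below (limma, Benjamini-Hochberg adjustment over all 15253 rows). The smallest adjusted p among them was 0.0615, for Novel01214 between CUMS-Sal and Ctrl-Sal.

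The other 6 of these loci were Novel01604 at a mean of 122 FPKM (1036 bp), Novel01301 at 109 FPKM (334 bp), Novel01214 at 90.3 FPKM (289 bp), Novel01132 at 85.1 FPKM (8150 bp), Novel01670 at 85 FPKM (2444 bp) and Novel00208 above. Novel01214 gave 82.4, 60.1 and 84.5 FPKM in Ctrl-Sal and 106, 93.1 and 105 FPKM in CUMS-Sal. Its lowest library was again Ctrl-Sal replicate 2, and without that library the log2 difference went from 0.43 to 0.28. Novel01670 gave 73.7, 70.1 and 83.9 FPKM in Ctrl-Sal, 86.3, 83.3 and 74.8 FPKM in CUMS-Sal, 84.4, 95 and 92.5 FPKM in CUMS-Flx, and 95.1, 93.3 and 87.5 FPKM in CUMS-Alb. Both drug groups lay above all 3 Ctrl-Sal libraries in Novel01670, at an adjusted p of 0.162 for CUMS-Flx and 0.062 for CUMS-Alb (limma).

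As a whole the 1346 loci took a small share of each library. They held 2.03% to 2.21% of a library's recovered reads, and 1325 of them were above 0 in all 12 libraries. The share of reads was 2.03% ± 0.00934 (SD, n = 3) in Ctrl-Sal, 2.16% ± 0.0513 in CUMS-Sal, 2.09% ± 0.0324 in CUMS-Flx and 2.15% ± 0.0426 in CUMS-Alb. The share of the summed FPKM was 1.14% ± 0.0589 in Ctrl-Sal, 1.31% ± 0.0298 in CUMS-Sal, 1.25% ± 0.0607 in CUMS-Flx and 1.31% ± 0.0137 in CUMS-Alb. Ctrl-Sal was lowest on both scales, and its 3 libraries did not overlap those of CUMS-Sal or CUMS-Alb. Ctrl-Sal overlapped CUMS-Flx in the share of FPKM, where CUMS-Flx replicate 1 had 1.18% and Ctrl-Sal replicate 3 had 1.2%. These sums were not tested.

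**Figure D2:**
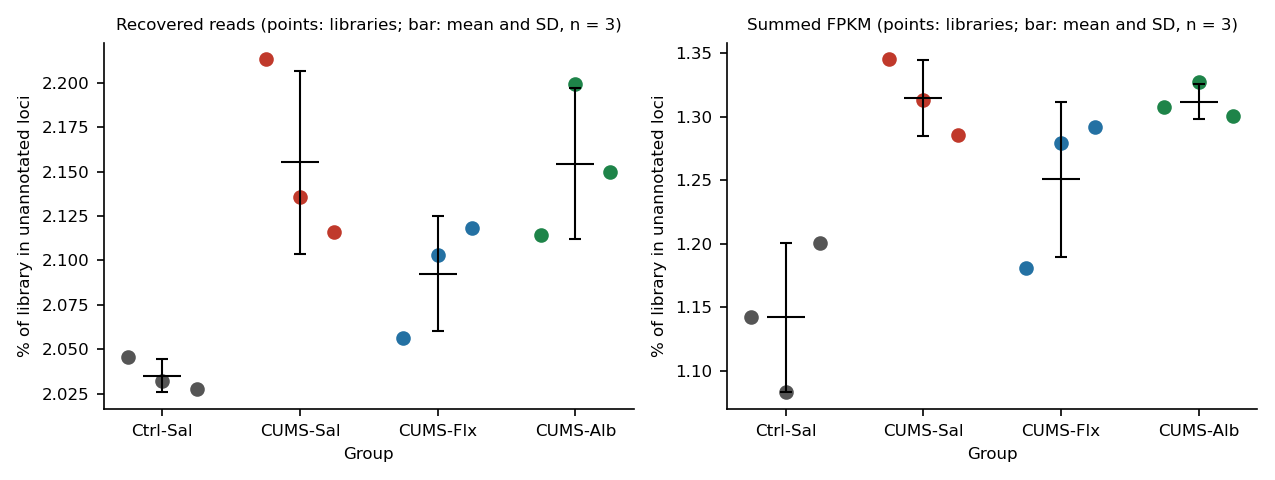
Each point is 1 library, with the percentage of its recovered reads (left) or of its summed FPKM (right) that fell in the 1346 loci, and the bars give the mean and SD of 3 libraries. The vertical axes do not start at 0, and the 12 libraries span 2.03% to 2.21% of reads.

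Each member was set beside the Ensembl row of nearest mean FPKM, each row used once, with at most 0.0076 log2 units between the means of a pair. The unannotated loci were of ordinary length. Their median was 2148 bp against 2043 bp in the matched rows and 2125 bp in all Ensembl rows at or over the threshold. They reached further at the long end, where 29 members (2.15%) exceeded 10000 bp against 10 matched rows (0.743%), and the longest row of the whole table, at 27354 bp, was a member. Under 500 bp the order was the other way, with 63 members (4.68%) against 102 matched rows (7.58%). At a like FPKM the counts behind the values were therefore close, with a median of 51 mean reads per library for the members and 46.9 for the matched rows. Lengths are those recovered from the FPKM values, and for a locus with few reads the length and reads can both be understated by a common factor.

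Replicate libraries differed about as much in the unannotated loci as in annotated rows of the same level. The median within-group SD of log2(FPKM + 0.5) was 0.19 in the members, 0.20 in the rows matched on FPKM, 0.20 in rows matched on reads and 0.14 over all tested rows. By group, the members' median SD was 0.18 in Ctrl-Sal, 0.17 in CUMS-Sal, 0.15 in CUMS-Flx and 0.15 in CUMS-Alb. By level, the members lay below Ensembl rows at the low end, with 0.21 against 0.24 between 0.5 and 1 FPKM, slightly above them between 2 and 50 FPKM, for example 0.15 against 0.13 between 5 and 10 FPKM, and level with them at 0.10 from 50 FPKM on.

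Beside rows of the same level, a larger part of the members varied well beyond counting error, though less than among all tested rows, which have more reads. The median ratio of the variance of reads between replicates to that of counting alone was 1.83 in the members and 1.81 in the matched rows, while the 90th percentile was 6.65 in the members and 4.8 in the matched rows. A ratio over 5 was found for 193 members (14.3%), for 126 rows matched on FPKM (9.36%) and for 136 rows matched on reads (10.1%), a limit chosen after the values were seen. Over all tested rows, with a median of 286 mean reads, the share was 27.9% and the 90th percentile 12.3. Above 10 FPKM the difference in the class medians was wider, with 5.14 in the members against 3.36 in Ensembl rows between 10 and 20 FPKM and 8.66 against 4.78 between 20 and 50 FPKM. Between libraries of 1 group, 13 members (0.966%) differed at least 4-fold with 20 or more reads in the highest library, against 8 rows (0.594%) in either matched set.

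In several of these 13 loci the libraries fell into a low and a high set that cut across the groups. Novel00876 (2582 bp) had the largest ratio of them, 138 times the counting variance. It gave 0.499, 0.47 and 4.27 FPKM in Ctrl-Sal, 4.7, 7.53 and 8.63 FPKM in CUMS-Sal, 8.9, 0.255 and 0.342 FPKM in CUMS-Flx, and 0.628, 4.91 and 4.74 FPKM in CUMS-Alb. Thus 5 libraries lay between 0.255 and 0.628 FPKM and 7 between 4.27 and 8.9 FPKM, with none between, and low libraries occurred in each group but CUMS-Sal. The libraries of CUMS-Sal did not overlap those of Ctrl-Sal, and the log2 difference was 2.12 ± 1.01 (SE) at an adjusted p of 0.188 (limma), and 1.73 without Ctrl-Sal replicate 2.

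Novel00657 (2209 bp) showed a similar split in other libraries. It gave 1.26, 4.6 and 0.898 FPKM in Ctrl-Sal, 7.84, 3.71 and 7.12 FPKM in CUMS-Sal, 1.03, 8.23 and 1.12 FPKM in CUMS-Flx, and 3.99, 8.05 and 7.33 FPKM in CUMS-Alb. The 4 low libraries, at 0.898 to 1.26 FPKM, belonged to Ctrl-Sal and CUMS-Flx, and the other 8 lay at 3.71 to 8.23 FPKM. Ctrl-Sal and CUMS-Sal overlapped, with a log2 difference of 1.47 ± 0.63 (SE) and an adjusted p of 0.139 (limma). The test over all 4 groups gave an adjusted p of 0.234 for Novel00657 and 0.423 for Novel00876.

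Novel01199 and Novel01234 were low or at 0 in most libraries. The shorter of them, Novel01199 with 228 bp, gave 0, 0.841 and 4.89 FPKM in Ctrl-Sal, 0.28, 0 and 0 FPKM in CUMS-Sal, 15.1, 0.262 and 0.242 FPKM in CUMS-Flx, and 0, 0 and 12.5 FPKM in CUMS-Alb. Only Ctrl-Sal replicate 3, CUMS-Flx replicate 1 and CUMS-Alb replicate 3 were high, and the high libraries held 18 to 59 reads against at most 3 in the other 9. Novel01234 (1095 bp) gave 0, 1.28 and 0 FPKM in Ctrl-Sal, 0, 1.25 and 0.119 FPKM in CUMS-Sal, 0, 0 and 1.71 FPKM in CUMS-Flx, and 0, 0 and 2.65 FPKM in CUMS-Alb. Each group of Novel01234 held 1 high library, and the adjusted p over the 4 groups was 0.993 (limma).

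In Novel00499 (1406 bp) the low libraries were fewer. It gave 3.09, 1.55 and 1.63 FPKM in Ctrl-Sal, 0.182, 2.96 and 0.139 FPKM in CUMS-Sal, 1.41, 1.53 and 2.79 FPKM in CUMS-Flx, and 1.38, 2.54 and 0.206 FPKM in CUMS-Alb. CUMS-Sal replicates 1 and 3 and CUMS-Alb replicate 3 stood at 0.139 to 0.206 FPKM and the other 9 libraries at 1.38 to 3.09 FPKM. The Ensembl row whose profile was most like it, ENSRNOG00000006365, was also low in those 3 libraries, with 0.121 and 0.169 FPKM in CUMS-Sal replicates 1 and 3 and 7.98 FPKM in CUMS-Alb replicate 3. Ctrl-Sal replicate 2 gave 8.18 FPKM in that row and the other 8 libraries lay between 13.2 and 15.8 FPKM. Pearson's r between both rows was 0.807 over the 12 libraries, the highest among all tested Ensembl rows and thus picked from many. The log2 difference of Novel00499 between CUMS-Sal and Ctrl-Sal was -1.13 ± 0.62 (SE, adjusted p = 0.242, limma).

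Novel01077, Novel00377 and Novel00795 completed the 6 loci with the largest within-group SD. Novel01077 (2038 bp) stood at 0.4 to 0.815 FPKM in 5 libraries, with at least 1 from each group, and at 2.05 to 4.29 FPKM in the other 7. Novel00377 (2322 bp) was at 0 in 5 libraries, 2 of Ctrl-Sal, 2 of CUMS-Sal and 1 of CUMS-Flx, and at 0.655 to 2.3 FPKM in the other 7. Novel00795 (384 bp) was lowest in CUMS-Sal replicate 2, at 0.169 FPKM, and in CUMS-Flx replicate 2, at 0. In 4 more of the 13 loci, Novel00085, Novel00519, Novel00968 and Novel00379, the only library below the widest gap was Ctrl-Sal replicate 2, at 0.666, 1.58, 0.47 and 0.341 FPKM against at least 7.94, 2.95, 2.29 and 1.24 FPKM in the other 11 libraries.

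**Figure D3:**
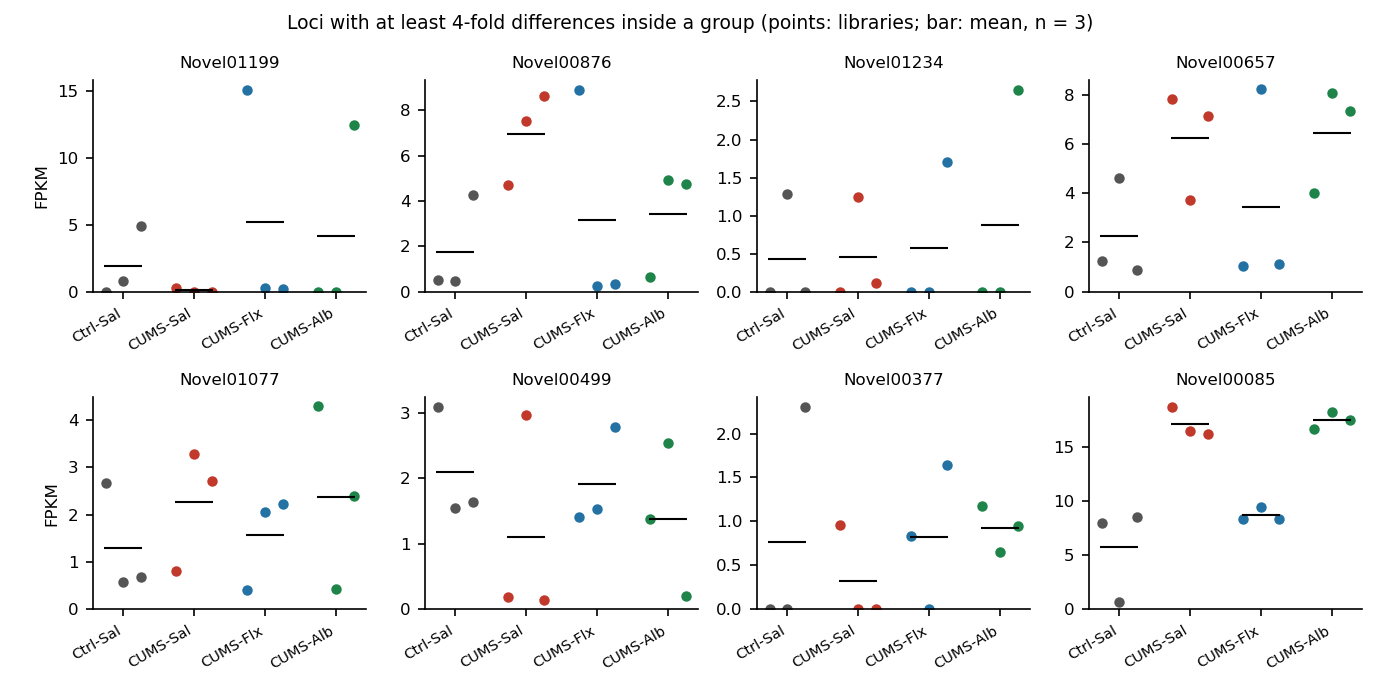
FPKM of 8 loci with differences of at least 4-fold inside a group, each point a library, coloured by group, and each bar the mean of 3 libraries, on linear axes from 0. In Novel00876, Novel00657, Novel01199 and Novel01234 the points form a low and a high set within groups, while Novel00085 lies near 8 FPKM or near 17 FPKM by group except for 1 Ctrl-Sal library at 0.666 FPKM.

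For the 10 loci of largest variance, the unannotated loci with the most alike profiles were compared by their numbers. Over the 12 libraries, Novel00872 was most like Novel00876 (r = 0.892, and 0.973 with group means removed). Novel00659 was most like Novel00657 (r = 0.834). The rest of the 10 had their most alike locus at a distant number. Examples were Novel00051 for Novel00085 (r = 0.960) and Novel01789 for Novel01126 (r = 0.956). Each match was picked as the highest r of many rows. Among 963 pairs of members with consecutive numbers the median r was 0.035, and 9 pairs (0.935%) exceeded 0.8. At a distance of 2, 3, 5 and 10 numbers, 2, 2, 1 and 6 pairs exceeded 0.8. With group means removed the counts were 14 for consecutive numbers and 10, 4, 11 and 10 at those distances, so consecutive numbers stood little apart. All rows share the same 12 libraries, and whether the numbers follow the order along a chromosome is not given in the sources used here.

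Stressed and unstressed rats that both received saline were compared first. Between CUMS-Sal and Ctrl-Sal, 62 of the 1346 members (4.61%) passed the test, 52 higher and 10 lower after stress. The background was 9.19% of all 15253 tested rows, 8.05% higher and 1.14% lower, and 92 of the 1346 rows matched on FPKM (6.84%), 84 higher and 8 lower. The test was limma on log2(FPKM + 0.5) with all 12 libraries in the fit, and a row was called at an adjusted p under 0.05. The called share of the members thus lay under both backgrounds. Libraries of the groups did not overlap in 276 members (20.5%), against 31.1% of all tested rows and 23.7% of the matched rows. An unadjusted p under 0.05 was found for 222 members (16.5%) against 30% of all tested rows. The median log2 difference was 0.08 in the members, 0.11 in the matched rows and 0.10 over all tested rows.

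The calls depend on scaling, on the fit and on single libraries. Counts under alternatives, here and below, are for the members alone. The share over all tested rows in the same fit is not given beside them, so they are not set against a background. With only the groups compared in the fit 0 members were called, with no filter on low rows 8, and with the replicate number as a block 25. After the median deviation of each library was set to 0, 35 members were called, 19 higher and 16 lower, and after quantile normalization 27 were called, 14 higher and 13 lower, so the share of higher calls went from 83.9% to 54.3% and 51.9%. The adjusted p-values of the 62 all lay between 0.0183 and 0.0497. Leaving out a library of the groups compared left 11 calls without Ctrl-Sal replicate 2, 14 without CUMS-Sal replicate 1 and 0 without CUMS-Sal replicate 2 or without CUMS-Sal replicate 3. The count was 61 without Ctrl-Sal replicate 1, and it rose to 82 without Ctrl-Sal replicate 3. Leaving out a library of the drug groups left 29 calls without CUMS-Flx replicate 2, 23 without CUMS-Alb replicate 1 and 27 without either CUMS-Alb replicate 2 or CUMS-Alb replicate 3. The count was 60 without CUMS-Flx replicate 1 and 45 without CUMS-Flx replicate 3. All 62 kept their sign without Ctrl-Sal replicate 2, and all 62 kept it with library deviations set to 0. Since the 62 were called on these same libraries, that was largely fixed in advance and says nothing on the calls.

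The 52 loci that rose after stress did so by a median of 0.62 on the log2 scale, 10 of them more than 2-fold and 32 more than 1.5-fold on the scale of FPKM + 0.5. Their mean levels ran from 0.544 to 81.5 FPKM. Novel01327 (2129 bp) had the smallest p. It gave 0.988, 0.72 and 1.16 FPKM in Ctrl-Sal and 2.04, 2.35 and 1.98 FPKM in CUMS-Sal, with no overlap. The log2 difference was 0.86 ± 0.15 (SE, adjusted p = 0.0183, limma), and 0.74 without Ctrl-Sal replicate 2. CUMS-Flx lay between at 1.34, 1.57 and 1.92 FPKM, and CUMS-Alb lay within the range of CUMS-Sal or next to it at 2.38, 2.25 and 1.91 FPKM.

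The largest difference among the 62, 2.13 ± 0.37 (SE) on the log2 scale, belonged to Novel00939 (192 bp, adjusted p = 0.0183, limma). Novel00939 gave 0, 0.333 and 1.29 FPKM in Ctrl-Sal, 3.33, 3.72 and 3.38 FPKM in CUMS-Sal, 0.606, 0.934 and 0.575 FPKM in CUMS-Flx, and 1.69, 0.609 and 1.21 FPKM in CUMS-Alb. CUMS-Sal alone was high, and its 3 libraries lay above all other 9. The values rest on 0 to 11 reads per library, so counting error is wide. Against CUMS-Sal, the log2 difference of CUMS-Flx was -1.73 ± 0.37 (SE), at an adjusted p of 0.298 that ran from 0.00345 to 0.762 over the alternatives (limma).

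Novel01011 (1246 bp) was read more deeply, with 90 to 301 reads. It gave 8.01, 4.62 and 9.8 FPKM in Ctrl-Sal, 15.2, 15.7 and 15.6 FPKM in CUMS-Sal, 9.62, 10.6 and 12.8 FPKM in CUMS-Flx, and 13.3, 12.5 and 11.7 FPKM in CUMS-Alb. CUMS-Sal was highest and nearly the same in its 3 libraries, and neither drug group overlapped it. The log2 difference to Ctrl-Sal was 1.07 ± 0.19 (SE, adjusted p = 0.0207, limma), and 0.78 without Ctrl-Sal replicate 2, the lowest library.

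Novel00445 (3063 bp) changed less and more evenly. It gave 2.59, 2.84 and 2.83 FPKM in Ctrl-Sal and 4.25, 4.24 and 3.88 FPKM in CUMS-Sal. CUMS-Flx, at 3.44, 3.42 and 3.15 FPKM, overlapped neither. The log2 difference between CUMS-Sal and Ctrl-Sal was 0.51 ± 0.09 (SE, adjusted p = 0.0212, limma), with 0.53 when Ctrl-Sal replicate 2 was left out. Novel00269 rose from 1.51 ± 0.737 FPKM (SD, n = 3) to 4.46 ± 1 FPKM and Novel01497 from 1.08 ± 0.158 FPKM to 1.88 ± 0.171 FPKM, and both passed the limma test. Without Ctrl-Sal replicate 2 Novel01497 no longer did, at an adjusted p of 0.0608.

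The 10 loci that fell after stress had a median log2 difference of -0.53, with a range from -0.95 to -0.24. None fell more than 2-fold on the scale of FPKM + 0.5. In FPKM itself the mean of Novel00722 went from 3.28 to 1.47 and that of Novel01024 from 1.37 to 0.603. With library deviations set to 0, the log2 difference of Novel00722 was -1.06, so these sizes depend on scaling. Novel01763 (3376 bp) gave 8.44, 8.59 and 7.99 FPKM in Ctrl-Sal, 6.26, 5.51 and 5.31 FPKM in CUMS-Sal, 5.46, 6.34 and 4.92 FPKM in CUMS-Flx, and 4.15, 5.23 and 5.18 FPKM in CUMS-Alb. All 9 stressed libraries lay below all 3 controls. The log2 difference between CUMS-Sal and Ctrl-Sal was -0.52 ± 0.11 (SE, adjusted p = 0.028, limma).

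Novel01419 (1265 bp) gave 6.33, 4.14 and 4.9 FPKM in Ctrl-Sal and 2.32, 3.29 and 2.47 FPKM in CUMS-Sal, a log2 difference of -0.81 ± 0.17 (SE, adjusted p = 0.0278, limma). Novel00538 (4303 bp) had the smallest difference of the 10, from 12.1, 12.5 and 12.2 FPKM in Ctrl-Sal to 10.6, 10 and 10.1 FPKM in CUMS-Sal. Its replicates lay close together, with a within-group SD of 0.03 on the log2 scale, and its log2 difference of -0.24 passed the limma test at an adjusted p of 0.0368. Novel01024, Novel01245 and Novel00722 also fell, by log2 differences of -0.74, -0.48 and -0.95 in the same limma fit. The test was no longer passed by Novel00538, Novel01024, Novel01245 and Novel00722 without Ctrl-Sal replicate 2, at adjusted p-values of 0.085 to 0.105, nor by Novel01763, at 0.0575.

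**Figure D4:**
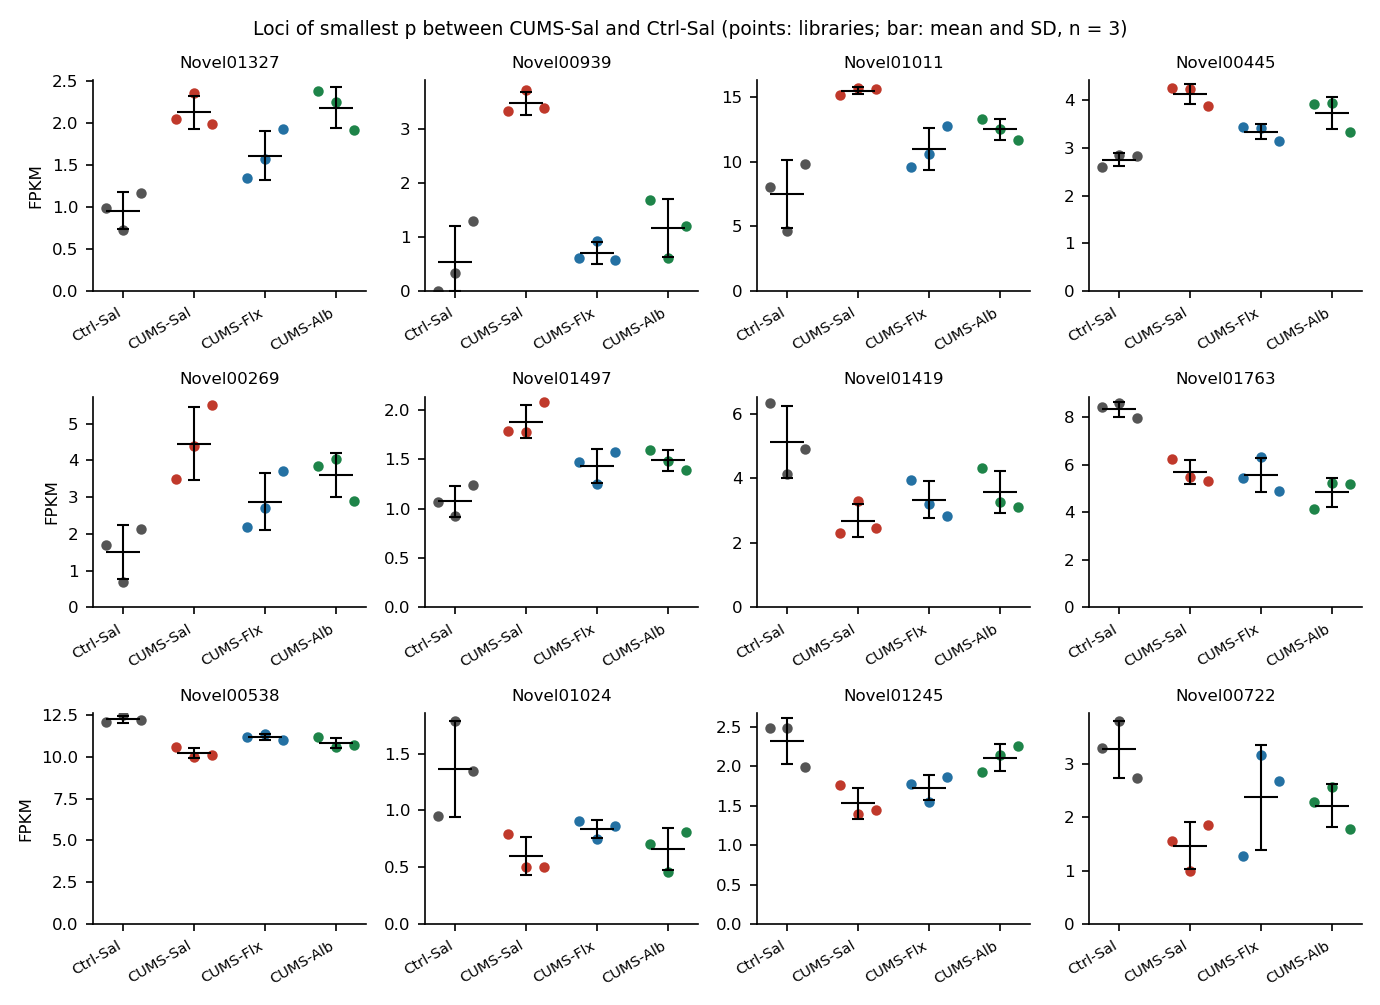
FPKM of 12 called loci, the 6 of smallest p in each direction between CUMS-Sal and Ctrl-Sal among those whose groups did not overlap. Each point is a library and each bar the mean and SD of 3 libraries (the lower end of a bar stops at 0), on linear axes from 0. In all 12 the points of CUMS-Sal and Ctrl-Sal do not overlap, since the rule for naming them asked for this.

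Level and length were not evenly represented among the calls. From 20 to 50 FPKM, 8 of 41 members (19.5%) were called, against 11.4% of Ensembl rows in that class, and from 1 to 2 FPKM 5.51% of members were called against 4.23%. From 0.5 to 1 FPKM the shares were 2.01% against 2.59%, and at 50 FPKM and over 3.57% (1 of 28 members) against 12.7%. Between 2 and 20 FPKM the members' called share was lower than that of Ensembl rows in each of the 3 classes, for example 4.9% against 10.2% from 5 to 10 FPKM. By length, 6.81% of members up to 1600 bp were called, 3.49% between 1600 and 2800 bp and 3.38% above 2800 bp, where the matched Ensembl rows had 6.37%, 6.98% and 7.25%. The differences between these shares were not tested. Loci of the set described next, such as Novel00051 and Novel01612 at means of 29.1 and 33.7 FPKM, lie in the class from 20 to 50 FPKM. Calls of loci that vary together are not independent.

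A set of loci rose and fell together over the libraries, and in it Ctrl-Sal replicate 2 was far lower than any other library. Novel00348 (1453 bp) gave 72.2, 35.7 and 67.7 FPKM in Ctrl-Sal, 96.5, 96.7 and 94.5 FPKM in CUMS-Sal, 64.4, 85 and 91.1 FPKM in CUMS-Flx, and 95, 93 and 86.8 FPKM in CUMS-Alb. Ctrl-Sal replicate 2 was lowest, and Ctrl-Sal overlapped CUMS-Flx through CUMS-Flx replicate 1. Its log2 difference between CUMS-Sal and Ctrl-Sal was 0.77 ± 0.21 (SE, adjusted p = 0.042, limma), and 0.45 at an adjusted p of 0.0565 without Ctrl-Sal replicate 2. Novel00348 was chosen after its values were seen.

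With Novel00348, 25 other members had a Pearson r over 0.9 across the 12 libraries, among them Novel01011, Novel00269, Novel00208 and Novel00085. In the stress comparison 11 of the 25 were called, where the share was 4.61% of the members and 9.19% of all tested rows. Nothing is read from that count or from the low values of Ctrl-Sal replicate 2, since the set was chosen for its likeness to a called locus with both features. Their median deviation from the row mean was -0.91 on the log2 scale in Ctrl-Sal replicate 2, against -0.18 and -0.12 in the other Ctrl-Sal libraries. In CUMS-Sal it was 0.20, 0.20 and 0.21, in CUMS-Flx -0.15, 0.15 and 0.13, and in CUMS-Alb 0.22, 0.17 and 0.11. Over all 1346 members the median deviation of Ctrl-Sal replicate 2 was -0.04. Over all tested rows it was -0.10, the lowest of the 12 libraries. Low values of that library also occurred in annotated rows. The Ensembl row ENSRNOG00000017373, picked for its likeness to Novel00085 (r = 0.977), gave 12.7, 9.11 and 13 FPKM in Ctrl-Sal. The rows share the same libraries, and the part of Ctrl-Sal replicate 2 in these differences was not tested beyond leaving it out.

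**Figure D5:**
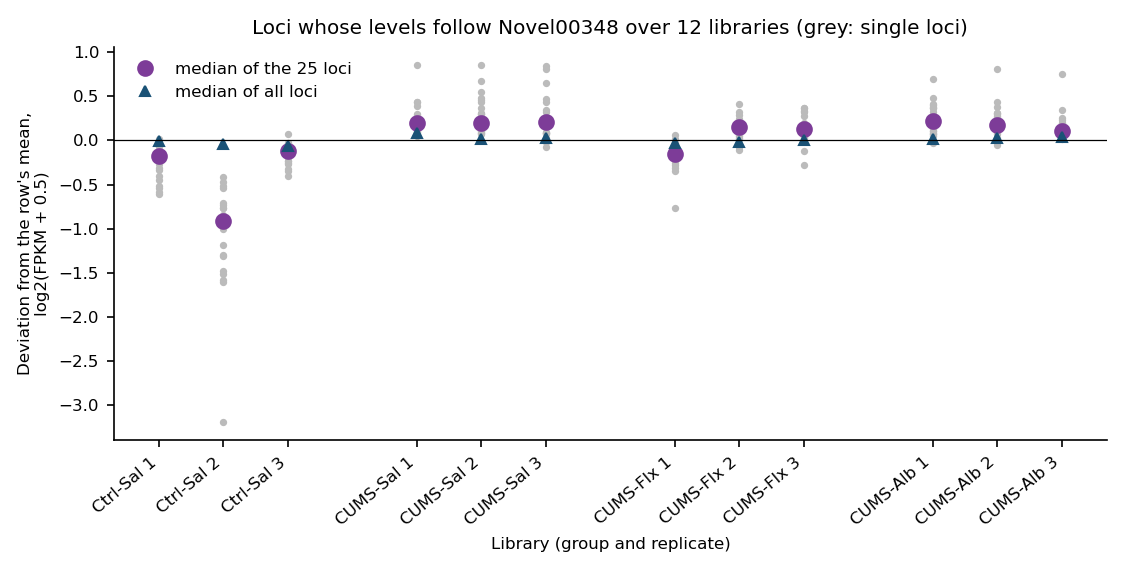
Deviation of log2(FPKM + 0.5) from each row's mean in the 12 libraries, for the 25 loci with r over 0.9 to Novel00348 (grey points), their median (circles) and the median of all 1346 loci (triangles). The circles lie at -0.91 in Ctrl-Sal replicate 2 and between -0.18 and 0.22 elsewhere, while the triangles stay between -0.06 and 0.08.

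Novel00085 (1727 bp) belonged to that set and had 2 separate levels over the groups, apart from Ctrl-Sal replicate 2. It gave 7.94, 0.666 and 8.54 FPKM in Ctrl-Sal, 18.7, 16.5 and 16.2 FPKM in CUMS-Sal, 8.29, 9.42 and 8.31 FPKM in CUMS-Flx, and 16.7, 18.2 and 17.5 FPKM in CUMS-Alb, on 18 to 539 reads. The stressed rats on saline or albiflorin stood at 16.2 to 18.7 FPKM, and those on fluoxetine stood at 8.29 to 9.42 FPKM, next to the controls other than Ctrl-Sal replicate 2. With all libraries no difference passed the test. The within-group SD was 0.84 on the log2 scale, and the log2 difference of CUMS-Sal to Ctrl-Sal was 1.98 ± 0.58 (SE, adjusted p = 0.0537, limma).

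Without Ctrl-Sal replicate 2, Novel00085 differed by 1.01 on the log2 scale between CUMS-Sal and Ctrl-Sal (adjusted p = 0.00066, limma), by 1.04 between CUMS-Alb and Ctrl-Sal (adjusted p = 0.00047, limma), by -0.94 between CUMS-Flx and CUMS-Sal (adjusted p = 0.000406, limma) and by 0.98 between CUMS-Alb and CUMS-Flx (adjusted p = 0.000282, limma). Over all alternatives these adjusted p-values ran up to 0.17, 0.172, 0.908 and 1. Between CUMS-Flx and Ctrl-Sal the log2 difference without that library was 0.07, at an adjusted p of 0.825 (limma). The comparisons share libraries and are not independent of each other. The locus was picked for its wide variance and then described with 1 library left out, so these values are a description of a chosen row.

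For the drug comparisons under stress no member passed the test. Between CUMS-Flx and CUMS-Sal 0 members were called by limma, as were 0% of all tested rows. An unadjusted p under 0.05 was found for 128 members (9.51%) against 9.98% of all rows, and groups did not overlap in 220 members (16.3%) against 17.9%. On the recovered reads limma-voom also called 0 members. With only these groups in the fit, 3 members were called, all lower in CUMS-Flx, namely Novel00085, Novel00939 and Novel00775, and without Ctrl-Sal replicate 2 only Novel00085 was called. Novel00775 (665 bp) gave 5.1, 3.36 and 18.1 FPKM in Ctrl-Sal, 16.2, 18 and 20 FPKM in CUMS-Sal, 9.89, 10.5 and 10.5 FPKM in CUMS-Flx, and 8.58, 12 and 12.8 FPKM in CUMS-Alb. CUMS-Sal lay above both drug groups in it, while Ctrl-Sal replicate 3 lay inside the range of CUMS-Sal.

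The smallest unadjusted p-values between CUMS-Flx and CUMS-Sal among higher loci belonged to Novel00866 and Novel00162. Novel00866 (1871 bp) gave 5.56, 5.21 and 4.76 FPKM in CUMS-Sal and 7.46, 9.33 and 7.14 FPKM in CUMS-Flx, and CUMS-Alb at 6.2, 6.34 and 4.78 FPKM overlapped CUMS-Sal. Its log2 difference was 0.57 ± 0.12 (SE) at an adjusted p of 0.298 (limma). Novel00162 (5304 bp), on 1242 to 1883 reads, gave 15.7, 16.2 and 15.2 FPKM in CUMS-Sal and 19.3, 19 and 19.6 FPKM in CUMS-Flx, with no overlap and an adjusted p of 0.334 (limma). On the lower side Novel00138 gave 11.8, 8.86 and 9.39 FPKM in CUMS-Sal and 6.93, 7.51 and 7.26 FPKM in CUMS-Flx.

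Between CUMS-Alb and CUMS-Sal limma called 0 members, with 0% of all tested rows called, and limma-voom called 0 too. Here 51 members (3.79%) had an unadjusted p under 0.05 against 3.66% of all rows, and 137 (10.2%) did not overlap against 11.3%. The rows of smallest p were Novel01706 and Novel00783 on the higher side and Novel01160 and Novel00920 on the lower side, each at an adjusted p of 1 (limma). Novel01706 (2556 bp) gave 0.675, 0.61 and 0.915 FPKM in CUMS-Sal and 1.29, 1.14 and 1.2 FPKM in CUMS-Alb. Novel01160 (266 bp) gave 0.96, 1.96 and 2.69 FPKM in CUMS-Sal and 0, 0 and 0.873 FPKM in CUMS-Alb, on 0 to 11 reads.

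The drugs were also set against each other at the doses above, which differ by the sample labels. Between CUMS-Alb and CUMS-Flx limma called 0 members against 0.00656% of all tested rows, which is 1 row, and limma-voom called 0 members. An unadjusted p under 0.05 was found for 66 members (4.9%) against 4.98% of all rows, and 163 (12.1%) did not overlap against 13.7%. Novel00809 (2862 bp) gave 6.3, 5.66 and 6.23 FPKM in CUMS-Flx and 7.97, 8.54 and 7.93 FPKM in CUMS-Alb, a log2 difference of 0.40 ± 0.08 (SE) at an adjusted p of 0.62 (limma). Novel01783 (1367 bp) gave 0.128, 0.219 and 0.0808 FPKM in CUMS-Flx and 0.854, 0.513 and 1.19 FPKM in CUMS-Alb, with an adjusted p of 0.62 as well (limma).

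Against unstressed rats, 0 members were called in CUMS-Flx by limma, where the background was 0.0524% of all tested rows, 0.0328% higher and 0.0197% lower. An unadjusted p under 0.05 was found for 144 members (10.7%) against 17.5% of all rows, 205 (15.2%) did not overlap against 17.7%, and limma-voom called 1 member. Without Ctrl-Sal replicate 3 the count of members was 20, with no share over all rows given for that fit. Novel00674 (1562 bp) gave 0.217, 0.205 and 0.278 FPKM in Ctrl-Sal and 0.559, 0.651 and 0.813 FPKM in CUMS-Flx, a log2 difference of 0.67 ± 0.15 (SE) at an adjusted p of 0.0925 (limma). Its CUMS-Sal and CUMS-Alb libraries, at 0.499 to 0.777 FPKM, also lay above all 3 controls.

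In CUMS-Alb against Ctrl-Sal 11 members (0.817%) passed the test, 8 higher and 3 lower. The background was 2.5% of all tested rows, 2.18% higher and 0.321% lower, and 1.56% of the matched rows. Groups did not overlap in 254 members (18.9%) against 31% of all tested rows. Of the 11, 6 were also among the 62 of the stress comparison, in the same direction, but both comparisons use the Ctrl-Sal libraries. The count ran from 0 to 74 when single libraries were left out. It was 22, 1 and 74 without Ctrl-Sal replicate 1, 2 and 3, 17 without CUMS-Flx replicate 1, 2 without CUMS-Flx replicate 3, 1 without CUMS-Sal replicate 2, and 0 without any 1 of the other 6 libraries. With library deviations set to 0 the count was 2, 1 in each direction.

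Novel01763 had the smallest p of these, with the values given above, at a log2 difference of -0.73 ± 0.11 (SE, adjusted p = 0.0385, limma). Novel01327 followed at 0.89 ± 0.15 (SE, adjusted p = 0.0391, limma). Novel00057 (2430 bp), on 973 to 1549 reads, gave 27.2, 25.7 and 29.1 FPKM in Ctrl-Sal, 32.8, 33.5 and 31.2 FPKM in CUMS-Sal, 31.7, 36.6 and 35.2 FPKM in CUMS-Flx, and 32.2, 35.1 and 35.1 FPKM in CUMS-Alb. All 9 stressed libraries lay above the 3 controls, and the difference of CUMS-Alb to Ctrl-Sal was 0.32 on the log2 scale (adjusted p = 0.0462, limma). Without Ctrl-Sal replicate 2 these adjusted p-values were 0.06 for Novel01763, 0.0621 for Novel01327 and 0.0978 for Novel00057, and none of them passed.

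Novel00215 (4880 bp) had a group mean of 16.5 ± 3.71 FPKM (SD, n = 3) in CUMS-Alb and 8.87 ± 1.8 FPKM in Ctrl-Sal. It gave 10.9, 8.08 and 7.6 FPKM in Ctrl-Sal, 14, 9.29 and 11.6 FPKM in CUMS-Sal, 10.6, 9.34 and 13.1 FPKM in CUMS-Flx, and 12.5, 19.7 and 17.5 FPKM in CUMS-Alb. CUMS-Alb overlapped both other stressed groups. On the lower side Novel00658 (1405 bp) gave 1.79, 1.27 and 1.59 FPKM in Ctrl-Sal, 0.318, 1.02 and 0.0925 FPKM in CUMS-Sal, 1.45, 0.128 and 0.629 FPKM in CUMS-Flx, and 0.323, 0.0832 and 0.124 FPKM in CUMS-Alb. CUMS-Alb was low in all 3 libraries of Novel00658, and the other stressed groups were mixed. Without Ctrl-Sal replicate 2 neither Novel00215 nor Novel00658 passed, at adjusted p-values of 0.107 and 0.0915 (limma).

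The test over all 4 groups at once called 0 members, against 0.0459% of all tested rows, and 181 members (13.4%) had an unadjusted p under 0.05 against 23.2%. On recovered reads limma-voom called 8 members in that test. Without Ctrl-Sal replicate 3 the count was 22, and without Ctrl-Sal replicate 2 it was 1, again without the share over all rows. No member was at 0 in every library of any group. For the 62 loci called in the stress comparison, the CUMS-Flx mean lay between those of Ctrl-Sal and CUMS-Sal in 58 and the CUMS-Alb mean in 57. The 62 were chosen with the CUMS-Sal and Ctrl-Sal libraries, so these counts are a description without a test.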

How the data were processed

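In all, 12 libraries of rat hippocampus (4 groups of 3, grouped by title) were analysed. Per the labels' protocols, TRIzol was used on snap-frozen tissue and libraries followed a standard Illumina protocol. TopHat2 and rn6 are named in the submitters' processing notes, without a version. The authors deposited 1 table of FPKM values. Its header names no unit, and FPKM was read from the values: for 22737 of 22737 rows above 0, 1 whole length and whole reads per library (within 0.0001 of a read) gave the deposited FPKM. Reads so recovered give depth, counting error, the shares of reads, the rows matched on reads and the input of limma-voom. The main test does not use them.

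The 15253 rows at or over a mean of 0.5 FPKM were fitted with limma 3.58.1 (R 4.3.3, trend and robust settings) on log2(FPKM + 0.5), 1 coefficient per group, with Benjamini-Hochberg adjustment over all rows, called at an adjusted p under 0.05. Folds on this scale understate changes of low rows. The steps were tested on simulated data. Summaries used Python 3.11.15, numpy 2.4.6 and pandas 2.3.3. Alternatives were another variance model, 2 scalings, 2 filters, pseudocounts of 0.1 and 1, fits of the compared groups only, a replicate block, limma-voom on recovered reads, and each library left out.

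Named loci were the 10 of highest mean, up to 6 called per direction and comparison by smallest p with non-overlapping groups (the 2 of smallest p per direction where fewer than 2 were called), the 6 of largest within-group SD, those nearest the threshold, and the most alike rows of the 10 of largest variance. Others named were chosen after their values were seen (Novel00775, Novel00348 and Novel00657 among them). The members, lists and tests were chosen with earlier results of these data known.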

Additional observations from a re-analysis of the deposited data

How the results depend on the processing

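The number of loci is set by the threshold, with 1346 at 0.5 FPKM, 848 at 1 FPKM and 239 at 5 FPKM. In the stress comparison the 62 called members (4.61%) became 27 with quantile normalization and 35 with library deviations set to 0. They became 8 with no filter and 0 with only the groups compared. At a minimum mean of 5 FPKM only 239 members were tested, and 28 of them were called (11.7%). The share over all rows in that fit is not given, so nothing is read from it. In the main fit, the classes from 5 FPKM on had 3.57% to 19.5% of members and 10.2% to 12.7% of Ensembl rows called. For CUMS-Alb against Ctrl-Sal the 11 (0.817%) became 0 without trend and robust settings, 3 with quantile normalization and 2 with library deviations set to 0. They became 0 with no filter, 0 with only the groups compared and 47 with limma-voom. At a minimum of 5 FPKM, 25 of the 239 members tested were called (10.5%), again without the share over all rows. The 0 of CUMS-Flx against CUMS-Sal became 3 and that of CUMS-Alb against CUMS-Flx 1 with only the groups compared, and that of CUMS-Flx against Ctrl-Sal 1 with limma-voom. The 0 of the test over 4 groups became 1 with quantile normalization, 2 of the 239 at a minimum of 5 FPKM and 8 with limma-voom. A filter changes the number of rows over which p-values are adjusted, and fits of 2 groups have fewer libraries, while the cause of the other shifts was not tested. With single libraries left out, the counts ran from 0 to 82 for stress, 0 to 1 for CUMS-Flx against CUMS-Sal, 0 to 0 for CUMS-Alb against CUMS-Sal, 0 to 1 for CUMS-Alb against CUMS-Flx, 0 to 20 for CUMS-Flx against Ctrl-Sal, 0 to 74 for CUMS-Alb against Ctrl-Sal and 0 to 22 for the test over 4 groups. The median within-group SD of 0.190 in the members and 0.200 in the matched rows became 0.249 and 0.257 at a pseudocount of 0.1 and 0.148 and 0.153 at 1, and with libraries left out it ran from 0.179 to 0.191 and from 0.184 to 0.200. With all 1891 serial IDs in place of the members, the share of reads became 2.07% in Ctrl-Sal and 2.13% in CUMS-Flx and the share of FPKM became 1.34% in CUMS-Alb, and the other group shares moved by less than their SD. The 37 differences named for a call or a small p kept their sign in all 791 alternative values. Their choice by small p in these same data largely fixed this, so nothing is read from it. Of the 60 differences of the 10 highest loci, none of them called, 24 changed sign in at least 1 alternative.

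The replicate numbers carry no stated pairing. Deviations of same-numbered libraries correlated between -0.16 and 0.13, above 0.1 in 1 of 18 pairs. With the replicate block 25 members were called in the stress comparison, all 25 among the 62, and 0 in CUMS-Alb against Ctrl-Sal.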

Other observations

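Loci under the threshold held no strong signal in any single library. The 496 unannotated rows above 0 with a mean under 0.5 FPKM had a median of 0.327 FPKM, a median length of 1858 bp and a median of 8.42 mean reads, none reached 2 FPKM in any library, and 27 were at 0 in 6 or more libraries. Novel00978, just outside the threshold, gave 0.461, 0.434 and 0.421 FPKM in Ctrl-Sal, 0.76, 0.718 and 0.828 FPKM in CUMS-Sal, 0.346, 0.406 and 0.188 FPKM in CUMS-Flx, and 0.441, 0.546 and 0.444 FPKM in CUMS-Alb. Its CUMS-Sal libraries lay above all other 9, on 4 to 15 reads per library.

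Novel01126 (1203 bp) was among the 10 loci of largest variance. It gave 6.88, 2.66 and 6.08 FPKM in Ctrl-Sal, 7.7, 22 and 19.7 FPKM in CUMS-Sal, 4.84, 8.85 and 9.87 FPKM in CUMS-Flx, and 9.43, 14 and 10.8 FPKM in CUMS-Alb. CUMS-Sal lay above Ctrl-Sal in 3 of 3 libraries, with a log2 difference of 1.53 ± 0.40 (SE, adjusted p = 0.0387, limma) and 1.15 at an adjusted p of 0.15 without Ctrl-Sal replicate 2. The Ensembl row most like it was ENSRNOG00000007290 (r = 0.968 over 12 libraries), at a mean of 268 FPKM, and the unannotated locus most like it was Novel01789 (r = 0.956), which was at 0 in Ctrl-Sal replicate 2 and at 3.37 FPKM in CUMS-Sal replicate 2.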
